A study of Mus musculus with 10 samples.

Results

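The genes described here are Tek, Tie1, Angpt1, Angpt2 and Ptprb. They encode the Tie receptors, their angiopoietin ligands and a receptor phosphatase that acts on Tie2, the product of Tek. The genes were chosen by name, as 5 of 23337 genes in the table of counts. RNA was sequenced from mouse embryoid bodies, free-floating clusters of pluripotent cells that begin to differentiate. They came from an iHA-Etv2 line, whose name stands for a doxycycline-inducible, HA-tagged copy of the ETS transcription factor Etv2. There were 5 groups of 2 libraries. These were doxycycline-treated (Dox) and untreated (NoDox) embryoid bodies at day 2, and Flk1-positive doxycycline-treated, other doxycycline-treated and untreated embryoid bodies at day 2.5. All groups, the untreated controls included, carry the Etv2 label. Flk1 is the product of Kdr. The libraries not labelled Flk1-positive may have been unsorted or sorted as negative, since the labels do not say which. Nor do they say whether the line is 1 clone, or whether replicates were separate cultures, so every p-value rests on a spread that could be purely technical.

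Tek encodes Tie2, a receptor tyrosine kinase of endothelial cells and early blood progenitors. Angiopoietin 1, made largely by cells around vessels, activates it and steadies the vessel wall, whereas angiopoietin 2, released by endothelium, acts as a weaker agonist or an antagonist depending on context. Tie1 binds no angiopoietin with high affinity and modulates Tie2 in a shared complex. Ptprb, also called VE-PTP, removes phosphate from Tie2 and from the junction protein VE-cadherin. In the mouse embryo the receptors mark forming blood vessels.

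On GRCm38, in the GENCODE annotation, Tek lies on chromosome 4 at 94739289 to 94874976 on the plus strand and Tie1 on the same chromosome at 118471191 to 118490061 on the minus strand. Angpt1 lies on chromosome 15 at 42424723 to 42676977 (minus), Angpt2 on chromosome 8 at 18690263 to 18741562 (minus) and Ptprb on chromosome 10 at 116275523 to 116389535 (plus). An antisense gene, Gm17473, overlaps 14.2% of the exonic length of Angpt1, and the counts cannot separate its reads if strand was not used. The exons of the other 4 genes overlapped no other annotated gene.

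The upstream sequences of both receptor genes are shown because an ETS factor was induced and both receptor genes rose with it at day 2.5. They are from RefSeq's promoter windows, which covered 2 of the 5 genes (Tek and Tie1), cut to bases upstream of every annotated transcript start. Capitals mark GGAA, the core letters read by ETS factors, on either strand (TTCC on the opposite one). The Tek sequence spans chr4:94739039-94739288 (plus strand) and the Tie1 sequence chr4:118490062-118490099 (minus strand), both on GRCm38 and both 5′ to 3′.
Tek: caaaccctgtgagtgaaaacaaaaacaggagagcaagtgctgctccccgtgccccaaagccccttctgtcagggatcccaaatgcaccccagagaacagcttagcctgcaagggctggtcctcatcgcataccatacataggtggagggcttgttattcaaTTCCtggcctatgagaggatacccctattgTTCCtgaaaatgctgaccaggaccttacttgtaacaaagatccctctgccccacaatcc
Tie1: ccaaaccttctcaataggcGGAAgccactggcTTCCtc
In the whole 300-base windows (250 bases before to 50 after the RefSeq start), GGAA occurred 2 times for Tek and 9 times for Tie1, counting both strands. At least 1 GGAA occurred in 96.0% of all 32851 windows, with a median of 3, and 1.59% held 9 or more. Beyond the 38 bases shown, the Tie1 window lies within the gene as GENCODE annotates it. The longer ETS forms CCGGAAGT and CAGGAAGT occurred in neither window, against 3.89% and 3.33% of all windows. GATAA, the letters read by GATA factors, occurred 1 time for Tek and not for Tie1, against 25.4% of windows with a match. These matches describe letters and do not show binding.

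Library totals ran from 18074070 to 36068329 counts, and 14548 genes were tested. Between the replicates of a group, the chi-square statistic divided by the number of genes was largest for Dox day 2 (27.3) and lay between 3.01 and 8.55 elsewhere. Etv2 had 455 ± 73.9 CPM (counts scaled to a common library size; SD, n = 2 here and below) with doxycycline and 16.9 ± 1.62 CPM without at day 2. At day 2.5 it had 313 ± 14.0 CPM in Flk1-positive, 263 ± 11.5 CPM in other Dox and 7.04 ± 0.66 CPM in untreated libraries. Of 10 endothelial markers, Emcn had 0 counts in all day 2 and untreated libraries. At day 2.5 the list summed to 797 to 833 CPM in Flk1-positive, 319 to 324 in other Dox and 50.4 to 51.9 in untreated libraries. Egfl7 (means 387, 107 and 24.6 CPM in these groups) and Eng (211, 109 and 19.4 CPM) made up most of each sum. In these bulk samples, more cells expressing a gene and more RNA per cell cannot be told apart.

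**Figure D1:**
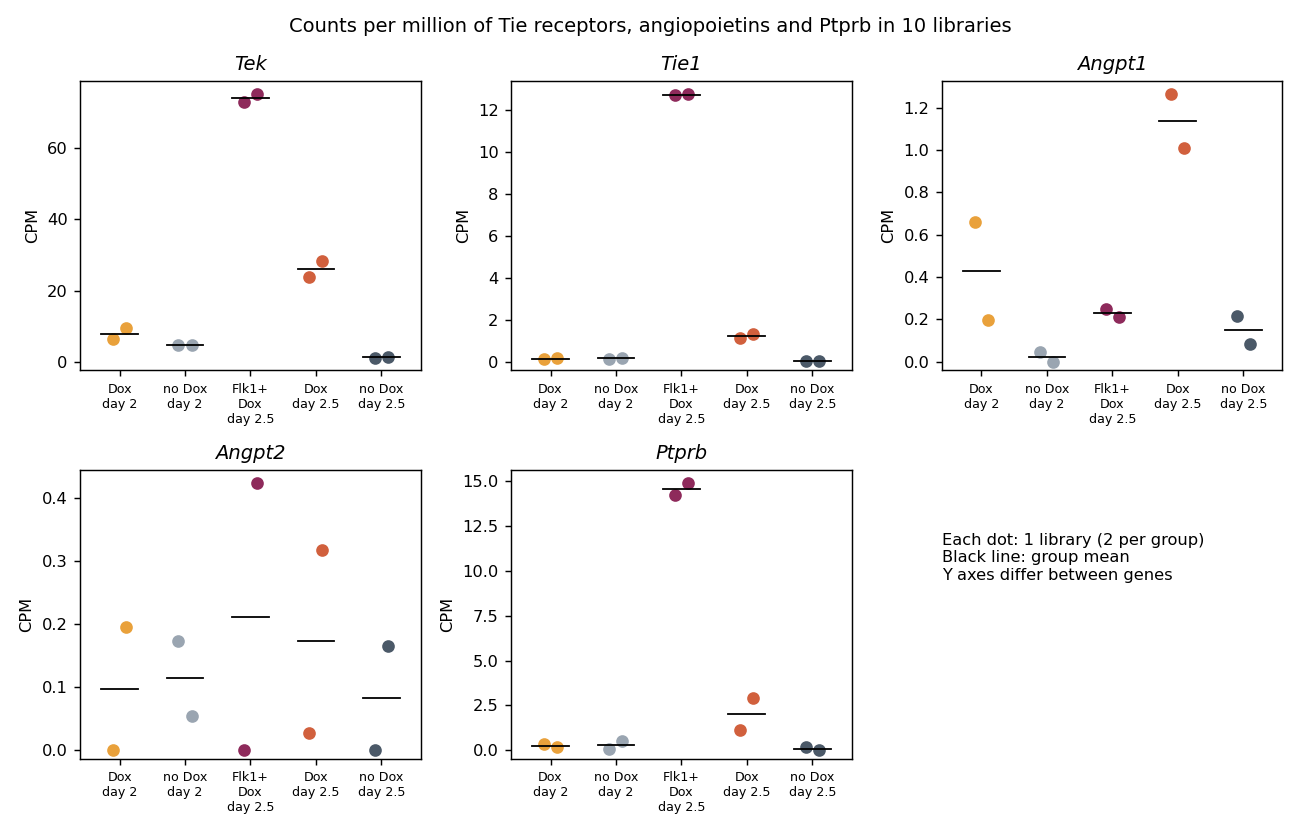
CPM of the 5 genes in each of the 10 libraries (dots), with group means (lines), doxycycline-treated groups left of the untreated group of the same day. Tek, Tie1 and Ptprb are highest in the Flk1-positive libraries (means 74.2, 12.7 and 14.6 CPM), Angpt1 in the other Dox day 2.5 libraries (1.14 CPM), and the highest Angpt2 group mean is 0.212 CPM.

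Tek was the most abundant of the 5 genes and the only one with clear counts in untreated embryoid bodies. At day 2.5 it stood at 73.1 and 75.3 CPM in Flk1-positive libraries, 23.9 and 28.2 CPM in other Dox libraries, and 1.13 and 1.33 CPM in untreated libraries. The 3 groups did not overlap and were ordered in the way of Kdr, which had 997 ± 15.3, 419 ± 20.1 and 7.23 ± 0.26 CPM in them. Tek rose with doxycycline by a log2 of 4.40 ± 0.22 (the error is the SE; edgeR quasi-likelihood test, p adjusted by Benjamini-Hochberg = 5.01e-10). It rose further in Flk1-positive against other Dox libraries, by 1.51 ± 0.15 (edgeR, adjusted p = 2.65e-06), and was 5.91 ± 0.22 above untreated libraries (adjusted p = 5.91e-12). These comparisons share libraries and are not independent of each other.

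At day 2, Tek stood at 6.23 and 9.43 CPM with doxycycline, against 4.72 and 4.69 CPM without. Both Dox libraries were above both untreated ones, but the Dox libraries differed more from each other than the lower of them did from the untreated libraries. The log2 fold change was 0.73 ± 0.20 and just passed the threshold (edgeR, adjusted p = 0.0434). That call was lost with RLE in place of TMM scaling (adjusted p = 0.0503), when the fit held the 2 groups compared and no others (0.339), and without any 1 library except Dox day 2 replicate 1 (0.0616 to 0.263). Without Dox day 2 replicate 2 the log2 value was 0.40, and without replicate 1 the call was kept (adjusted p = 3.66e-04). Between the days, Tek rose in Dox libraries (log2 1.74 ± 0.17, edgeR adjusted p = 1.72e-06) and fell in untreated ones (-1.93 ± 0.25, adjusted p = 2.26e-04). Over the same interval untreated Kdr fell by 1.99 and untreated Etv2 by 1.26 on the log2 scale, both past the threshold. In Dox libraries Kdr rose by 1.74 (edgeR, adjusted p = 2.89e-07), whereas Etv2 fell by 0.79 (adjusted p = 4.05e-05). Tek and Etv2 thus moved in opposite directions there, though the Etv2 counts do not separate the induced copy from the native gene. A link between the 2 genes was not tested. The interaction of doxycycline and day was 3.67 ± 0.30 for Tek (edgeR, adjusted p = 1.15e-06).

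Tie1, the second receptor, was close to the detection floor at day 2, with exactly 3 counts in each of the 4 libraries of that day, or 0.142 and 0.147 CPM with doxycycline and 0.130 and 0.164 CPM without. Doxycycline made no difference that could be detected at this depth (log2 -0.0098 ± 0.72; edgeR, adjusted p = 1). At day 2.5 it had 12.7 and 12.8 CPM in Flk1-positive libraries, 1.13 and 1.33 CPM in other Dox libraries, and 1 count in each untreated library. The groups of day 2.5 did not overlap. The 87 counts of other Dox libraries against 2 of untreated ones gave a ratio of 28.9, with an exact 95% counting interval of 7.75 to 242 (edgeR, adjusted p = 1.44e-05). The 549 counts of Flk1-positive libraries against the same 2 gave a ratio of 300.1 (82.7 to 2485; edgeR, adjusted p = 1.43e-09). Such intervals and floors cover counting error only.

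Between Flk1-positive and other Dox libraries Tie1 rose by a log2 of 3.37 ± 0.29 (edgeR, adjusted p = 4.49e-07). From day 2 to day 2.5 it rose in Dox libraries by 3.05 ± 0.47 (adjusted p = 1.02e-04). The untreated change, 2 counts against 6, was a ratio of 0.293 with an interval of 0.0289 to 1.64 and was not called (edgeR, adjusted p = 0.245). The interaction of doxycycline and day was called for Tie1 (fitted log2 4.70 ± 1.03, edgeR adjusted p = 0.00758), though the fitted size rests on groups with very few counts. Without untreated day 2 replicate 2 its adjusted p was 0.0510.

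Angpt1, the activating ligand, had a different order of groups. At day 2.5 it stood at 0.248 and 0.212 CPM in Flk1-positive libraries, 1.26 and 1.01 CPM in other Dox libraries, and 0.218 and 0.0829 CPM in untreated libraries. These are 6 and 4, 46 and 35, and 5 and 2 counts, so the other Dox libraries were above all others while Flk1-positive and untreated libraries overlapped. Angpt1 rose with doxycycline (log2 2.89 ± 0.78; edgeR, adjusted p = 0.0110) and fell in Flk1-positive against other Dox libraries (-2.27 ± 0.74, adjusted p = 0.0230). Against untreated libraries the Flk1-positive ones differed by 0.62 ± 0.95, which was not called (edgeR, adjusted p = 0.603).

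Both Angpt1 calls rest on few counts. The rise lost its call without Dox day 2.5 replicate 1 (edgeR, adjusted p = 0.0627) or untreated day 2.5 replicate 2 (0.118), and without untreated day 2.5 replicate 1 its log2 value was 3.70. The fall lost its call without any 1 of the 4 libraries compared (0.0572 to 0.127) and with DESeq2 (0.0525), with log2 values that stayed between -2.43 and -2.10 in all 15 alternatives. As a ratio of summed counts, 10 against 81, the Flk1-positive level was 0.204 of the other Dox level, with an exact 95% counting interval of 0.0940 to 0.394. At day 2 there were 14 and 4 counts with doxycycline, against 1 and 0 without, a ratio of 17.9 (2.83 to 746) that was not called (edgeR, adjusted p = 0.0912). Without Dox day 2 replicate 2 it was called (adjusted p = 0.0202). The change between days was not called with doxycycline (adjusted p = 0.109) or without (0.259), nor was the interaction (0.726).

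Angiopoietin 1 is known as a product of mural and mesenchymal cells, so mural markers are given beside it. The 10 markers summed to 118 to 125 CPM in Flk1-positive, 239 to 250 in other Dox and 321 to 344 in untreated day 2.5 libraries. In Flk1-positive against other Dox libraries 4 of the 8 tested fell and none rose, and in other Dox against untreated libraries 4 fell and none rose (2 fell without Dox day 2.5 replicate 2, and 1 rose without either Dox day 2 library or in a fit of the compared groups alone). Over all genes tested, 21.3% fell and 20.5% rose in the first contrast, and 13.8% fell and 16.1% rose in the second. Angpt1 fell in the first and rose in the second. Notch3 made up most of each summed level, at 72.3 ± 6.59 CPM in Flk1-positive, 152 ± 5.19 in other Dox and 201 ± 22.0 in untreated day 2.5 libraries. Among Rgs5, Cspg4, Kcnj8 and Abcc9 the highest group mean of that day was 1.94 CPM (Cspg4 in other Dox libraries). The part of the mural list in the result was not tested.

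Angpt2, the context-dependent ligand, was barely detected. Its counts were 0 and 8 in Flk1-positive, 1 and 11 in other Dox and 0 and 4 in untreated libraries at day 2.5, and 0 and 4 with doxycycline against 4 and 1 without at day 2. All groups overlapped, and the gene did not pass the filter on low counts. Fitted without the filter, none of the 7 comparisons was called for it (edgeR, adjusted p from 0.603 to 1), and DESeq2 gave adjusted p-values of 0.625 and 0.785 in 2 of them and no adjusted value in the other 5. A difference of Angpt2 was not detectable at this depth. The third ligand of the family, Angpt4, had 2 counts in all libraries together.

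Ptprb, the phosphatase, was ordered over the day 2.5 groups as both receptors were. It stood at 14.2 and 14.9 CPM in Flk1-positive libraries, 1.15 and 2.92 CPM in other Dox libraries, and 0.174 and 0 CPM in untreated libraries. The 3 groups did not overlap, and the other Dox replicates, with 42 and 101 counts, were far apart. Ptprb rose with doxycycline by a log2 of 4.50 ± 0.78 (edgeR, adjusted p = 4.98e-04), and the 143 counts against 4 gave a ratio of 23.7 (exact 95% counting interval 9.06 to 88.2). Without Dox day 2.5 replicate 2 the log2 value was 3.68, without untreated replicate 2 it was 3.50, and without untreated replicate 1, which leaves 0 counts on that side, the fitted value of 8.64 has no meaning as a size. All 3 stayed past the threshold.

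In Flk1-positive against other Dox libraries Ptprb rose by 2.84 ± 0.44 (edgeR, adjusted p = 1.35e-04), or 3.65 without Dox day 2.5 replicate 2. Against untreated libraries it was higher by 7.34 ± 0.69 (adjusted p = 4.32e-07), or 6.34 without untreated day 2.5 replicate 2 and a fitted 11.5 against the lone library with 0 counts. At day 2 there were 7 and 4 counts with doxycycline against 2 and 9 without, and no difference was called (log2 -0.028 ± 0.95; edgeR, adjusted p = 0.996). From day 2 to day 2.5 Ptprb rose in Dox libraries by 2.92 ± 0.65 (adjusted p = 0.00212), or 2.11 without Dox day 2.5 replicate 2, and the untreated change was not called (0.360). The interaction of doxycycline and day was 4.52 ± 1.34 (edgeR, adjusted p = 0.0402). It lost its call in a fit of the compared groups alone (0.0745) and without untreated day 2 replicate 2 (0.451, log2 2.94), Dox day 2.5 replicate 2 (0.0955, log2 3.71), untreated day 2.5 replicate 2 (0.142, log2 3.53) or either Flk1-positive library (0.0590 and 0.0595). Without untreated day 2 replicate 1 its log2 value was 5.38, and without untreated day 2.5 replicate 1 a fitted 8.67, both still called.

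**Figure D2:**
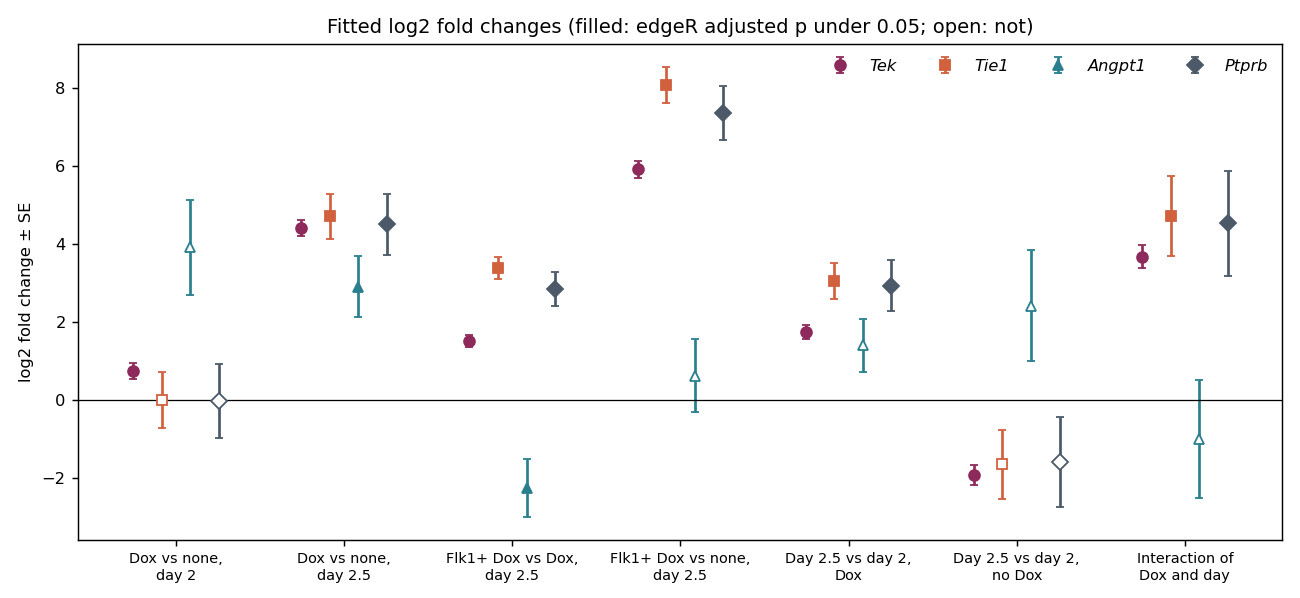
Fitted log2 fold change with its standard error for Tek, Tie1, Angpt1 and Ptprb in the 7 comparisons; filled symbols passed an edgeR adjusted p of 0.05. Tek, Tie1 and Ptprb lie above 0 in both Flk1-positive comparisons, and Angpt1 lies at -2.27 in Flk1-positive against other Dox libraries.

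Of the 5 genes, 4 passed the filter on low counts. Tie1 and Angpt1 were over its cutoff in doxycycline libraries alone, and Ptprb in 4 doxycycline libraries and 1 untreated library, where 2 libraries were needed. For these 3 genes a difference was thus built in, and the counts below support nothing further. With doxycycline at day 2, 1 of the 5 rose (Tek), beside 3.11% of all genes tested, and none fell, beside 1.56%. At day 2.5, 4 rose, beside 16.1%, and none fell, beside 13.8%. In Flk1-positive against other Dox libraries 3 rose, beside 20.5%, and 1 fell (Angpt1), beside 21.3%. Against untreated libraries 3 rose in Flk1-positive ones, beside 28.6%, and none fell, beside 26.6%. From day 2 to day 2.5, 3 rose with doxycycline, beside 22.9%, and none fell, beside 23.1%. Without doxycycline none rose, beside 9.22%, and 1 fell (Tek), beside 10.3%. The interaction was positive for 3, beside 6.87%, and negative for none, beside 5.24%. Of 9 tested endothelial markers, 8 rose with doxycycline at day 2.5, and Vwf (log2 -0.46) was not called. Among the 8, Erg and Icam2 had means under the filter's cutoff of 0.431 CPM in all untreated and day 2 groups. A difference was thus built in for them too. In Flk1-positive against other Dox libraries 7 rose and Pecam1 fell. That fall lost its call without untreated day 2 replicate 2, Dox day 2.5 replicate 2 or either Flk1-positive library. Of 7 tested blood markers, 4 rose and none fell in each of these contrasts. Gata1, called in the first, and Gfi1b, called in the second, had means under that cutoff in all untreated and day 2 groups. The same limit applies to both. The 10 summed to 75.3 to 83.3 CPM in Flk1-positive, 45.8 to 48.9 in other Dox and 39.9 to 40.4 in untreated libraries. Myb made up most of each sum, at 48.7 ± 6.11, 36.8 ± 2.44 and 35.5 ± 1.05 CPM. It was not called with doxycycline at day 2.5 (edgeR, adjusted p = 0.798). In Flk1-positive against other Dox libraries Myb was among the 4 that rose (log2 0.40, edgeR adjusted p = 0.0157). Hbb-bh1, Hba-x and Ptprc had 0 counts in Flk1-positive and other Dox libraries of day 2.5. The part of the endothelial and blood markers in the result was not tested.

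Set per kilobase of exon, so that genes can be compared, the levels in Flk1-positive libraries were 15.7 ± 0.33 CPM per kb for Tek, 2.59 ± 0.0070 for Tie1, 1.09 ± 0.034 for Ptprb, 0.057 ± 0.081 for Angpt2 and 0.044 ± 0.0049 for Angpt1. The first 3 were separated by more than their spread, and the ligands were not. In other Dox libraries of day 2.5 Tek stood at 5.53 ± 0.65, Tie1 at 0.250 ± 0.029, Angpt1 at 0.218 ± 0.034, Ptprb at 0.153 ± 0.094 and Angpt2 at 0.047 ± 0.056 CPM per kb. There Tie1, Angpt1 and Ptprb could not be ordered beyond their spread. In untreated libraries of that day Tek stood at 0.261 ± 0.029 CPM per kb and the other 4 were between 0.0065 and 0.029.

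The receptors did not keep a fixed ratio to each other. Per kilobase, Tek exceeded Tie1 by 5.99 and 6.15 times in Flk1-positive libraries, against 22.1 and 22.2 times in other Dox libraries of day 2.5. Untreated libraries of that day gave 27.1 and 33.4, but from 1 Tie1 count each. The Flk1-positive and other Dox values did not overlap. Between 2 groups of 2 libraries an exact two-sided permutation test cannot give a p below 0.333, and no other test of the ratio was run.

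Against Kdr, the receptor that defines the Flk1 label, Tek split the libraries by treatment. Per kilobase it was 12.0% of Kdr in both Dox day 2 libraries, against 31.8% and 30.9% in untreated ones. At day 2.5 it was 13.9% and 14.6% of Kdr in Flk1-positive, 11.3% and 12.5% in other Dox, and 30.8% and 34.3% in untreated libraries. The 6 Dox libraries thus lay between 11.3% and 14.6% and the 4 untreated ones between 30.8% and 34.3%, with no overlap, while Tek itself ran from 1.13 to 75.3 CPM. Tie1 was 2.32% and 2.38% of Kdr in Flk1-positive against 0.511% and 0.563% in other Dox libraries. Ptprb was 0.957% and 1.02% of Kdr in Flk1-positive libraries, against 0.193% and 0.456% in other Dox libraries. Neither pair of groups overlapped. Untreated libraries of day 2.5 gave 1.13% and 1.03% for Tie1, above other Dox libraries but from 1 Tie1 count each. For Ptprb they gave 1.67% and 0%, from 4 and 0 counts, and so lay on both sides of the Dox groups.

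**Figure D3:**
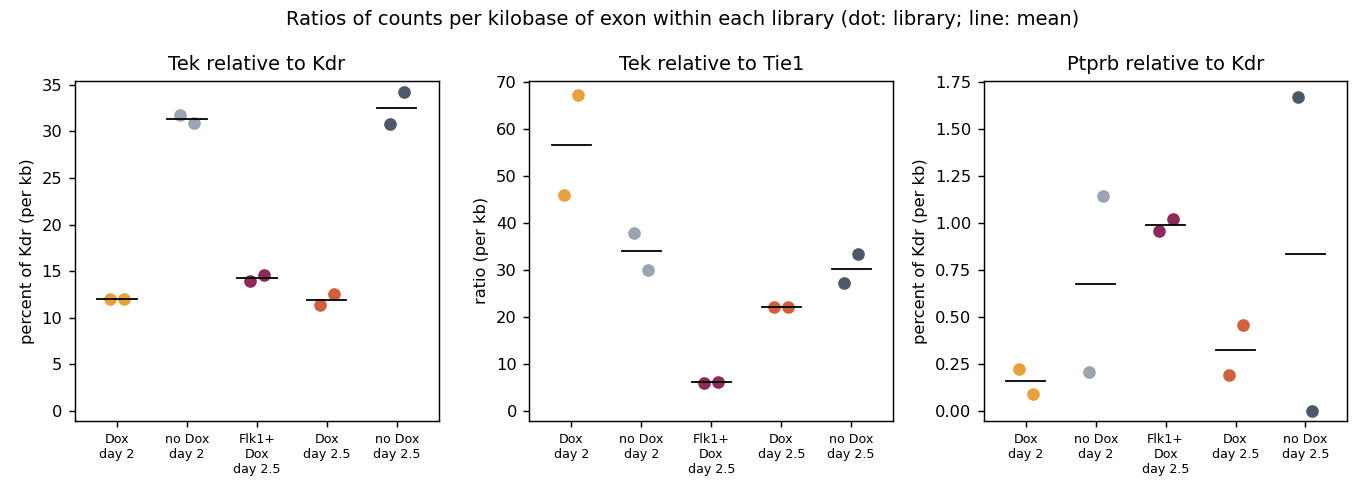
Counts per kilobase of exon of Tek and Ptprb as a percentage of Kdr, and of Tek as a multiple of Tie1, in each library (dots) with group means (lines). Tek lies between 11.3% and 14.6% of Kdr in the 6 Dox libraries and between 30.8% and 34.3% in the 4 untreated ones; in untreated libraries Ptprb rests on 0 to 9 counts.

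Beyond the 5 genes, 9 ligands, partners and sheddases of the pathway were examined, and 7 passed the filter. In Flk1-positive against other Dox libraries, 2 rose, namely the angiopoietin-binding integrin subunit Itga5 (log2 0.59 ± 0.11) and the sheddase Adam17 (0.32 ± 0.099), and 2 fell, namely Itgb1 (-0.60 ± 0.099) and the junction protein Jup (-0.39 ± 0.093). Over all genes tested 20.5% rose and 21.3% fell, and the list's median was 0.11, beside -0.0040 over all genes. Only 1 rose without either Dox day 2.5 library or Flk1-positive replicate 1, and 1 fell without Flk1-positive replicate 2. With doxycycline against none at day 2.5, 5 of the 7 rose and none fell, beside 16.1% and 13.8% of all genes tested. The list median was 0.49 beside 0.0030 over all genes. Among the 5, Bmx (edgeR, adjusted p = 0.0401) had a mean of 0.470 CPM in other Dox libraries. Its means were under the filter's cutoff of 0.431 CPM in all untreated and day 2 groups, so a difference was built in for it. Cdh5 encodes VE-cadherin, also a substrate of Ptprb. It had 29.4 ± 2.52 CPM in other Dox and 0.168 ± 0.11 CPM in untreated libraries (log2 7.40 ± 0.29, edgeR adjusted p = 4.80e-11). Cdh5 showed no called difference between Flk1-positive libraries, at 31.8 ± 2.81 CPM, and other Dox libraries (0.11 ± 0.16, adjusted p = 0.617). The count of 5 was 3 with DESeq2 and without Dox day 2.5 replicate 1, either Flk1-positive library or either untreated day 2.5 library. Against untreated libraries 5 rose and 1 fell in Flk1-positive ones, beside 28.6% and 26.6% of all genes tested (3 rose without Flk1-positive replicate 1; none fell without it or without untreated day 2.5 replicate 2).

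All 20 adaptors and effectors listed for Tie2 signalling passed the filter. With doxycycline at day 2, 2 rose and none fell, namely Pik3r1, the regulatory subunit of phosphoinositide 3-kinase (log2 1.11), and the adaptor Shc1 (0.55), beside 3.11% and 1.56% of all genes tested. The 2 were 4 without Dox day 2 replicate 1 and 1 in a fit of the compared groups alone, and 1 fell without Dox day 2 replicate 2. With doxycycline at day 2.5, 7 of the 20 rose and none fell, beside 16.1% and 13.8% of all genes tested, with a list median of 0.29 beside 0.0030 over all genes; 1 fell when either Dox day 2 library was dropped or the fit held the compared groups alone. The endothelial nitric oxide synthase Nos3 had 8.20 ± 0.49 CPM in other Dox and 1.004 ± 0.87 CPM in untreated libraries (log2 3.01 ± 0.34; edgeR, adjusted p = 6.54e-06). Pik3r1 rose by 1.30 ± 0.13, Shc1 by 1.01 ± 0.086 and the GTPase-activating protein Rasa1 by 0.58 ± 0.11. Dok2, an adaptor that binds phosphorylated Tie2, was not called (-0.34 ± 0.25; adjusted p = 0.335).

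In Flk1-positive against other Dox libraries 5 of the 20 rose and 5 fell, shares near the 20.5% and 21.3% of all genes tested, with a median of 0.029 beside -0.0040 over all genes. Nos3 rose to 36.0 ± 5.38 CPM (log2 2.13 ± 0.26; edgeR, adjusted p = 1.30e-05) and Shc1 by 0.56 ± 0.085, whereas the adaptors Grb14 and Grb7 fell by 1.45 and 0.90 on the log2 scale (edgeR, adjusted p = 2.19e-04 and 2.54e-06). The 5 rising were 3 without Dox day 2.5 replicate 2 or either Flk1-positive library, and the 5 falling were 3 without Flk1-positive replicate 1. Foxo1, the transcription factor that Tie2 signalling holds in check and that promotes Angpt2 expression in endothelium, had 81.2 ± 0.91 CPM in Flk1-positive, 102 ± 3.26 CPM in other Dox and 82.8 ± 1.99 CPM in untreated libraries. It was among the 5 that fell in Flk1-positive against other Dox libraries (log2 -0.33 ± 0.11; edgeR, adjusted p = 0.0255). Against untreated libraries 7 rose and 3 fell in Flk1-positive ones, beside 28.6% and 26.6% of all genes tested (list median 0.034 beside 0.013), led by Nos3 at a log2 of 5.14 ± 0.33 and Shc1 at 1.57 ± 0.087.

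**Figure D4:**
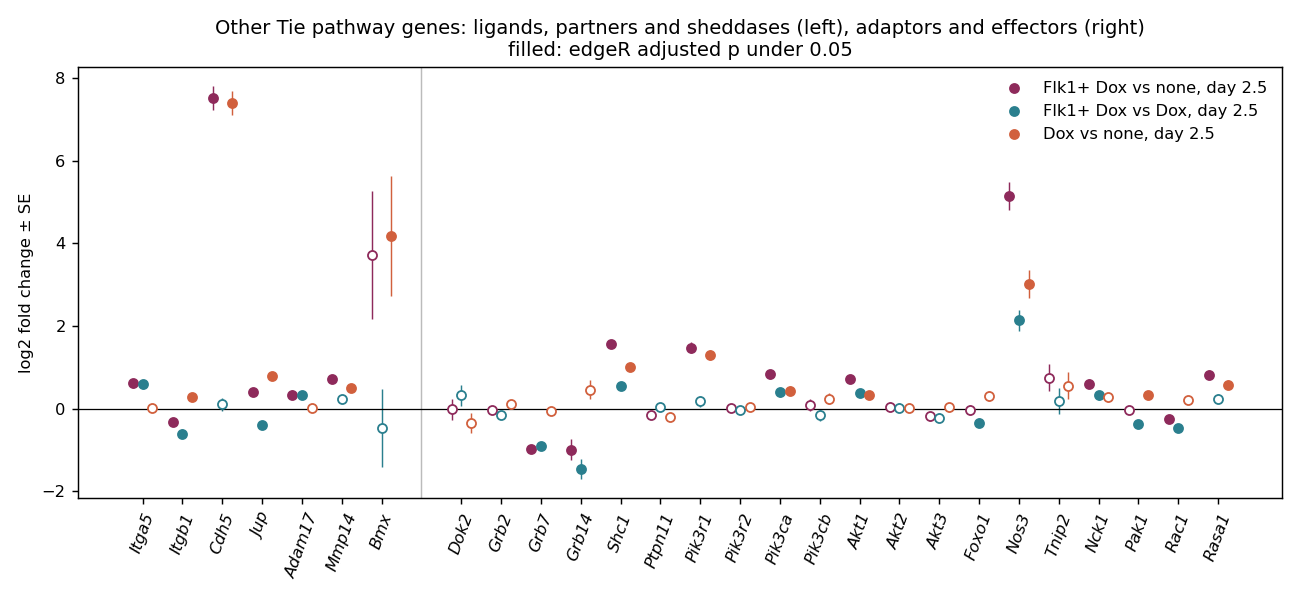
Log2 fold change with its standard error for the 27 other Tie pathway genes that passed the filter, in 3 comparisons of day 2.5; filled symbols passed an edgeR adjusted p of 0.05. Cdh5 and Nos3 stand highest against untreated libraries, at 7.50 and 5.14 in Flk1-positive ones, while Grb7 and Grb14 lie below 0 in both Flk1-positive comparisons.

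The genes whose profiles over the 10 libraries lay closest to each member were found by the root mean square (RMS) difference of centred log2(CPM + 0.5), among 12868 genes averaging at least 1 CPM. For Tek these were Slfn5 (RMS 0.34), the VEGF and semaphorin co-receptor Nrp1 (0.39) and the zinc transporter Slc39a4 (0.39). Nrp1 had 70.9 ± 0.12 CPM in Flk1-positive, 39.0 ± 4.43 in other Dox and 2.84 ± 1.61 in untreated libraries of day 2.5. For Tie1 they were Vsig2 (0.23), Gm14204 (0.26) and D17H6S56E-3 (0.27), all with means under 0.5 CPM in untreated and day 2 groups. For Ptprb the closest gene was Tie1 itself (0.30), followed by the adenosine receptor gene Adora2a (0.32) and the growth factor gene Igf1 (0.36). For Angpt1 they were the sterol transporter gene Abcg1 (0.23), Trnp1 (0.24) and Sidt1 (0.28). Abcg1 had 7.17 ± 0.21 CPM in Flk1-positive, 16.8 ± 0.14 in other Dox and 7.98 ± 0.91 in untreated libraries. The added 0.5 CPM flattens low profiles, and that of Angpt2 was so flat that its nearest genes (Tsga10, Spag16 and Dfna5, 0.20 to 0.21) are simply flat too.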

How the data were processed

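Bulk RNA-seq was available for 10 libraries, 2 in each of 5 groups taken from the sample titles. The authors deposited 1 table of raw counts per gene symbol. TopHat, HTSeq, DESeq2 and the mm10 build are named per the submitters' processing notes, without versions or roles. The gene annotation, the strand setting and the treatment of multiply mapped reads were not given in the sources used here. Of 23429 rows, 92 spike-in rows held 0 counts and were left out. Total counts were 18074070 to 36068329 per library, and 3 counts, the limit that a count of 0 allows, equal at most 0.164 CPM.

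The test was that of edgeR 4.0.16 (run in R 4.3.3): filterByExpr (minimum count 10, total 15), TMM scaling, and a robust quasi-likelihood fit of 1 mean per group to all 10 libraries (5 residual degrees of freedom). P-values were adjusted by Benjamini-Hochberg over 14548 genes, with a threshold of 0.05, in 7 comparisons. SE values come from the quasi-likelihood F statistic. CPM use TMM-scaled library sizes, and levels per kb use union exon lengths from GENCODE M21, which may differ from the authors' annotation. Ratios with 1 to 3 counts in a group carry exact 95% binomial intervals. The procedure was tested on simulated data. Alternatives were RLE scaling, no filter, DESeq2 1.42.0, fitting only the compared groups, a replicate block and leaving out each library.

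The members and the 9 gene lists (81 genes, 2 found under older symbols) were chosen with earlier results of these data known. The text names the members, Etv2 and Kdr, up to 4 genes per list and comparison with the smallest adjusted p, and the 3 closest profiles per member. Dok2, Foxo1, Angpt4, Emcn, Hbb-bh1, Hba-x, Ptprc, Rgs5, Kcnj8, Abcc9 and Icam2 fall outside that rule and were added after their values were seen. So were Cdh5, Pecam1 and Tbx6 in Flk1-positive against other Dox libraries, and Cspg4, Myb, Utf1, Erg and Vwf with doxycycline at day 2.5. Ptprh and Ptprq also fall outside the rule, since they were not tested.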

Additional observations from a re-analysis of the deposited data

Results flagged for a closer look

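For 3 genes the effect of doxycycline differed between the 2 days by the interaction term of the edgeR fit. The day 2.5 effect exceeded the day 2 effect by a log2 of 3.67 for Tek (adjusted p = 1.15e-06), 4.70 for Tie1 (adjusted p = 0.00758) and 4.52 for Ptprb (adjusted p = 0.0402). In Tek the libraries moved in opposite directions with time, to 23.9 and 28.2 CPM at day 2.5 against 6.23 and 9.43 CPM at day 2 with doxycycline, and to 1.13 and 1.33 CPM at day 2.5 against 4.72 and 4.69 CPM at day 2 without. Tie1 and Ptprb had at most 9 counts in any day 2 library, so their fitted sizes are loose. The Ptprb call itself was lost in a fit of the compared groups alone (edgeR, adjusted p = 0.0745) and with any of several libraries left out. The Tie1 call was lost without untreated day 2 replicate 2. No group has enough libraries to ask whether 1 of them stands apart from the rest.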

How the results depend on the processing

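Over 15 alternatives, 382 of 413 recomputed member fold changes kept their direction and their side of the threshold, 25 lost the call, 1 gained it and 5 changed sign. The sign changes were all in values that were not called: with 1 library left out, Tie1 with doxycycline at day 2 ran from -0.18 to 0.14 (0.014 without Dox day 2 replicate 1), Ptprb from -0.88 to 1.55 (0.30 without Dox day 2 replicate 2) and the Angpt1 interaction from -3.53 to 0.10. The count of members higher with doxycycline at day 2 was 0 with RLE scaling or a fit of the compared groups alone and 0 to 1 with a library left out. Without Dox day 2 replicate 2 the gene called there was Angpt1 and not Tek. The count lower in Flk1-positive against other Dox libraries was 0 with DESeq2 and 0 to 1 with a library left out, and the count with an interaction was 1 to 3. In a fit of the compared groups alone, 7 member values (3 of Angpt1, 2 of Tie1 and 2 of Ptprb) could not be had because the gene failed the filter there. The cause of these changes was not tested. Over all genes, day 2 calls were 453 higher and 227 lower, against 117 and 38 in a fit of the compared groups alone, 437 lower without the filter, and 188 to 1035 higher and 58 to 1275 lower with 1 library left out. For untreated day 2.5 against day 2, 1342 were higher and 1494 lower, against 2299 and 2276 in a fit of the compared groups alone, with 358 to 2266 and 322 to 2536 with 1 library left out. Leaving out 1 library also moved the 2001 lower with doxycycline at day 2.5 (1032 to 2945), the 2982 higher in Flk1-positive against other Dox libraries (1909 to 3779), and the 1000 positive and 763 negative interactions (559 to 2115 and 278 to 1954). No pairing of libraries by replicate number was detected: the differences of replicates 1 and 2 correlated between groups at -0.034 to 0.098 over genes. Low correlations of this kind cannot exclude a shared batch. With a replicate block all 28 member calls were kept (Tek at day 2, edgeR adjusted p = 0.0274). Depth limits Angpt1, Angpt2 and all day 2 values of Tie1 and Ptprb.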

Other observations

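Ptprb has relatives of the same receptor phosphatase subfamily, and the one with clear counts moved the other way. Ptprj, which encodes the broadly expressed phosphatase also known as CD148 or DEP-1, had 7.17 ± 1.62 CPM in Flk1-positive, 15.7 ± 0.38 CPM in other Dox and 28.9 ± 0.068 CPM in untreated libraries of day 2.5 (SD, n = 2). It fell in Flk1-positive against other Dox libraries by 1.14 on the log2 scale (edgeR, adjusted p = 9.67e-05) and with doxycycline at day 2.5 by 0.88 (adjusted p = 5.56e-04). Ptpro was under 1 CPM in each group mean and not called in these comparisons, and Ptprh and Ptprq did not pass the filter.

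The angiopoietin-like genes share domains with the angiopoietins but do not act through Tie2. Of 7, 3 passed the filter, and none was called by edgeR with doxycycline at day 2.5 or in Flk1-positive against other Dox libraries (smallest adjusted p = 0.0640 for Angptl2 and 0.0753 for Angptl4). At an unadjusted edgeR p under 0.05 there were 2 in the first contrast, in opposite directions (Angptl2, log2 0.53, and Angptl4, -0.52), and 1 in the second (Angptl4, -0.59). The share of all genes at that threshold was not computed. It cannot be below the share called at the adjusted one (16.1% higher and 13.8% lower, then 20.5% and 21.3%), so nothing is read from these counts. Angptl4, a lipoprotein lipase inhibitor, was lower in Flk1-positive libraries, at 2.34 ± 0.083 CPM, than in untreated libraries, at 5.03 ± 0.16 CPM (edgeR, log2 -1.10 ± 0.25, adjusted p = 0.00178).

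Angpt2 counts were higher in replicate 2 than in replicate 1 in 4 of the 5 groups, with 8 against 0, 11 against 1, 4 against 0 and 4 against 0. They were lower in untreated day 2 libraries, with 1 against 4. At 0 to 11 counts per library this order was not tested, and the share of all genes with such an order was not computed.

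At day 2.5 most primitive streak and early epiblast genes were lower in the groups where the receptors were higher. Of 6 streak and nascent mesoderm markers, 5 fell and none rose with doxycycline, beside 13.8% and 16.1% of all genes tested, Mixl1 with the smallest p (log2 -2.34; edgeR, adjusted p = 9.44e-11). In Flk1-positive against other Dox libraries 4 fell and 2 rose (T, log2 0.63, and Tbx6, 1.10), beside 21.3% and 20.5% of all genes tested. The untreated control itself changed with time: 3 of the 6 rose from day 2 to day 2.5 and none fell, beside 9.22% and 10.3%. These were T (390 to 835 CPM), Eomes (556 to 1330) and Mixl1 (205 to 479). With doxycycline 4 fell and none rose between the days, beside 23.1% and 22.9%. Of 6 pluripotency and epiblast markers, 4 fell and 2 rose with doxycycline at day 2.5 (Dppa4, log2 0.94, and Utf1, 0.82). In Flk1-positive against other Dox libraries 4 fell and none rose, Nanog with the smallest p (log2 -5.19, edgeR adjusted p = 1.85e-11).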
